A study of Mus musculus with 2 samples.

Results

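The genes described here build and run motile cilia. They comprised every gene row whose symbol names a cilia- and flagella-associated protein (Cfap), an axonemal dynein heavy chain (Dnah), a dynein assembly factor (Dnaaf), a nexin-dynein regulatory complex subunit (Drc), a radial spoke protein (Rsph), an intraflagellar transport protein (Ift), a tektin (Tekt) or a sperm-associated antigen (Spag), plus Zbbx, Pkd1l1 and Pkd2. The rule reads symbols and no values, though it was written with earlier results of these data known, and it gave 101 of the 32285 genes in the table. A symbol is not a function, and the Spag name in particular also covers proteins of the mitotic spindle and of signalling scaffolds. Nuclei were taken from a pool of whole mouse embryos of embryonic day 7.0 (E7.0) and profiled with a kit that reads nuclear RNA and open chromatin from the same droplet. The 2 groups were the RNA and the open chromatin of these E7.0 nuclei, each 1 library. No treatment was named for the embryos, and no altered allele outside the strain entry. The labels conflicted: title, age and protocol gave whole E7.0 embryos, while the tissue, cell type and strain entries gave intestine, goblet cells and RedMUC298trTg. That strain name is of a mucin reporter strain. All 15341 barcodes were shared by both assays and could not be assigned to single embryos. With 1 library per assay no test was possible. Intervals given with values are exact, at 95%, a form that covers counting error only.

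A motile cilium is a microtubule axoneme whose doublets carry dynein arms, radial spokes and nexin links, and which is assembled at its tip by intraflagellar transport trains. In the gastrulating mouse embryo the ventral node carries such cilia, each cell bearing a single one that mostly lacks the central microtubule pair, and their rotation drives the leftward fluid flow that breaks left-right symmetry. Foxj1 and the RFX factors are the textbook activators of genes for motile cilia, and Noto acts upstream of them in the mouse node. Many other cells of the embryo carry an immotile primary cilium, which needs intraflagellar transport but not dynein arms.

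After filtering, 12796 nuclei remained. Node-like nuclei were grouped apart from the assay being measured, but the clusters of both assays were named from marker RNA. For RNA they were the 590 nuclei of 1 cluster of accessibility counts, set against the 12206 others. For accessibility they were the 413 nuclei of 1 cluster of RNA, from which the members and the genes of fixed pathway lists had been withheld. Dnaic1 and Dnaic2, listed under other names, and cilium genes outside the lists were not withheld. Both definitions shared 335 nuclei. Median depth was 9636.5 UMIs (unique RNA molecules) and 19383 peak counts in the 590 nuclei, against 10536.5 and 17235.5 in the others. The name rested on 10 node and notochord markers, of which 4 were at least 2-fold higher in the 590 nuclei on 50 UMIs or more. Noto was 35.1-fold higher (22.4 to 55.8), Chrd, a secreted BMP antagonist of the node, 23.2-fold (21.1 to 25.4) and Foxa2 9.58-fold (8.99 to 10.2). The 50 UMIs were summed over both groups, and Noto, with 52 against 34 UMIs, reached that minimum only with its node-like UMIs. T was 2.69-fold higher, and Shh, under that minimum, had 4 UMIs against 15. Nog and Sox9 were lower, at ratios of 0.265 and 0.451, and Dand5, a marker of the node's crown, was at 0.931. Markers of anterior streak and definitive endoderm were also raised, in 7 of 10 genes and from 732 to 1723 CPM (UMIs scaled to a total of 1000000). The primitive streak list was raised in 4 of 9 genes, from 240 to 506 CPM, and the anterior ectoderm list in 3 of 8, from 360 to 537 CPM. The maternal decidua list stood at 118 against 45.0 CPM, with 1 of 7 genes higher and Prl8a2 and Hoxa10 at 0 UMIs. The visceral endoderm list lay at 856 against 3744 CPM. Of the goblet and intestinal list, 4 of 8 genes, among them Muc2 and Tff3, had no UMI in these nuclei, and the list stood at 8.39 against 30.2 CPM. What part these other markers play in the cilium gene values was not tested.

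The promoters of these genes are shown first, since both assays bear on them. The RefSeq promoter table (GRCm38.p6) matched 80 of the 101 genes in 88 windows that run from 250 bases before to 50 after a start. The half-site GTTGCC of the RFX factors, searched on both strands, was present in 37.5% of the windows of these genes, against 12.5% of all 32851 windows and 13.0% of the windows of genes with at least 50 UMIs. It was present in 40% of 30 windows of members that were not higher in node-like nuclei and in 30.6% of 49 windows of those that were. The whole X-box, an inverted repeat that can contain the half-site, matched 1 member window (1.14%) against 0.451% of all windows. Forkhead cores TGTTTAC and TATTTAC matched 4.55% and 2.27% of member windows and 3.65% and 3.04% of all. The 250 bases upstream of the start are printed in the direction of transcription, with half-sites and the X-box in capitals. Cfap44, Tekt1, Spag16 and Ift57 stand for genes with higher RNA in node-like nuclei and a half-site pair. Cfap298 held the match to the strict X-box pattern, and Cfap206 had higher RNA and no match in its window. They lie at chr16:44394549-44394798 (plus strand, Cfap44), chr11:72361883-72362132 (minus, a start of Tekt1), chr1:69826720-69826969 (plus, Spag16), chr16:49699044-49699293 (plus, Ift57), chr16:90934850-90935099 (minus, Cfap298) and chr4:34730207-34730456 (minus, Cfap206).
Cfap44: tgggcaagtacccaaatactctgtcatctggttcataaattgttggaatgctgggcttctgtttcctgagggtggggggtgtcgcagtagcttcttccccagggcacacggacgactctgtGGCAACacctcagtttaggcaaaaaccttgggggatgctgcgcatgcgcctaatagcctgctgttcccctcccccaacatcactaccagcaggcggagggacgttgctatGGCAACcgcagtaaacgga
Tekt1: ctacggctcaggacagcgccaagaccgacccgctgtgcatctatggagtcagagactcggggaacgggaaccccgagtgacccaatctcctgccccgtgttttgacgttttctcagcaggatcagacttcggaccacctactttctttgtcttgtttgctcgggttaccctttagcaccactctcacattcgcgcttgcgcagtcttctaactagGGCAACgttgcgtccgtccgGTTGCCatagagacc
Spag16: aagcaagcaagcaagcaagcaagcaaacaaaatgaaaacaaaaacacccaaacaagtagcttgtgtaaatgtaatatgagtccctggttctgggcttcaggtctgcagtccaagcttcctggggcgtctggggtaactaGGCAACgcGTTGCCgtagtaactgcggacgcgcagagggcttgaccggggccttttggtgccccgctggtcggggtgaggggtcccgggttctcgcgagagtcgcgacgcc
Ift57: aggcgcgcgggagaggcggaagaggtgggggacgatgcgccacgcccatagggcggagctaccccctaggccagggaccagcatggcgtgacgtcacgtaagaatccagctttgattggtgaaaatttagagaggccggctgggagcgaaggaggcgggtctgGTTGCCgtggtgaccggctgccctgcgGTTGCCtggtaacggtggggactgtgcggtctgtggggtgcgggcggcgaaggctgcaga
Cfap298: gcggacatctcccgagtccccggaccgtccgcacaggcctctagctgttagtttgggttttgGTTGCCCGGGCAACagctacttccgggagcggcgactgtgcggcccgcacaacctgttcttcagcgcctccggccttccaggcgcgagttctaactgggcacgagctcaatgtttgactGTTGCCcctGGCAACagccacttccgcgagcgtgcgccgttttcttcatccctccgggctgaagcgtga
Cfap206: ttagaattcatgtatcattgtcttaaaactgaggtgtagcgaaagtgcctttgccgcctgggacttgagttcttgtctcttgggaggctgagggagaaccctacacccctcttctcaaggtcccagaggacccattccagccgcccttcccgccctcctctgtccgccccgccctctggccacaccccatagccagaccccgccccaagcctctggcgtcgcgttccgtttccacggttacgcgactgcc
In Spag16 the paired half-sites point toward opposite strands with only a short spacer between them, and in Ift57 they repeat in the same direction. A match describes these letters only and does not show that a factor binds there.

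RNA of the cilium genes was higher in node-like nuclei than in all others. Of the 101 genes, 98 had at least 1 UMI and 87 had the 50 UMIs asked for in a comparison. Of these 87, 52 were at least 2-fold higher with an interval that left out 1, and 0 were lower by the same rule. Over all genes 6.16% were higher and 7.91% lower. The 50 UMIs were summed over both groups, and 5 of the 87 (Cfap65, Cfap97d1, Cfap99, Drc7 and Zbbx) reached them only with their node-like UMIs. Of the 82 others, 48 were higher. The median log2 ratio was 1.35 for the 87 genes and -0.05 for all 17686 genes compared. With node-like nuclei taken from RNA clusters instead, 11 of the 87 ratios moved by over 1.5 times. Those of Zbbx (213), Cfap206 (60.3), Drc7 (53.5), Dnah5 (42.9), Cfap65 (42.4), Tekt1 (25.6), Dnah9 (19.0), Dnah6 (7.66) and Dnah10 (2.38) were larger, and those of Cfap97d1 (1.21) and Dnah14 (0.130) smaller. Summed over all 101 genes, RNA was 2935 CPM in node-like nuclei and 1317 CPM in the others, a ratio of 2.23 (2.19 to 2.26). Spag11a, Spag11b and Spag17os had no UMI in any nucleus.

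**Figure D1:**
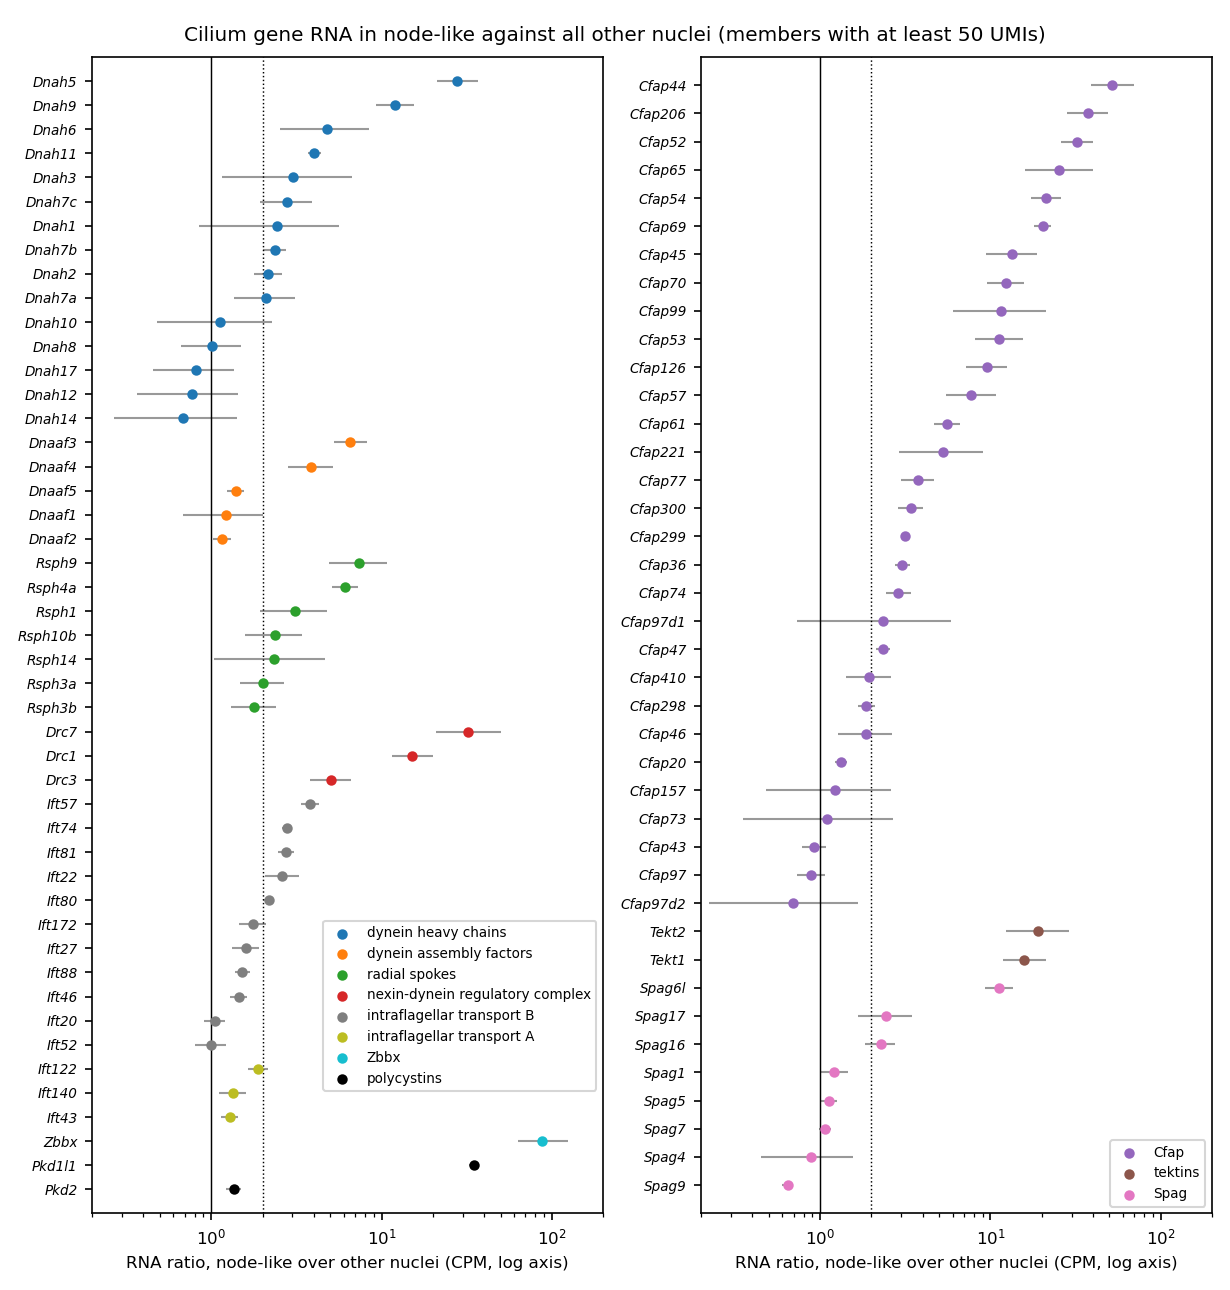
Ratio of summed RNA (CPM) in 590 node-like over 12206 other nuclei, on a log axis, for the 87 cilium genes with at least 50 UMIs. Points are ratios coloured by family, bars are 95% counting intervals, and the dotted line marks 2-fold. Zbbx (87.8-fold) and Cfap44 (51.9-fold) lie farthest to the right and Spag9 (0.645) farthest to the left.

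Dynein heavy chains, the motor subunits of the arms, split into a raised and an unraised set. Of 15, 9 were higher, with a median log2 ratio of 1.24. Dnah5, the outer arm heavy chain most often mutated in primary ciliary dyskinesia, had 119 UMIs in node-like nuclei and 98 in all others, 27.9-fold (21.2 to 36.8). Dnah9, also of the outer arm, was 12.0-fold higher (9.31 to 15.5; 96 against 183 UMIs). Dnah11, whose loss in the mouse randomises left-right placement, was 4.04-fold higher (3.69 to 4.41; 582 against 3310 UMIs). The inner arm chain Dnah7b was 2.36-fold higher (2.03 to 2.73), though its near-identical neighbours Dnah7a and Dnah7c could share its reads. Dnah17 (0.818; 0.454 to 1.37), Dnah12 (0.768; 0.365 to 1.43) and Dnah14 (0.678; 0.270 to 1.42) had intervals that spanned 1, on 15, 10 and 7 UMIs in node-like nuclei. With RNA clusters Dnah14 was lower by the rule, at 0.130 (0.00327 to 0.730). Of the outer arm chains named here, Dnah5, Dnah9 and Dnah11 were raised. Dnah17, best known from sperm, and Dnah8 (log2 ratio 0.04) were not.

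Of the 5 cytoplasmic assembly factors that preassemble dynein arms, 2 were higher. These were Dnaaf3 at 6.57-fold (5.24 to 8.18) and Dnaaf4 at 3.86-fold (2.84 to 5.17). Dnaaf1 stood at 1.21 (0.684 to 2.0) and Dnaaf2 at 1.16 (1.02 to 1.31). A Dnaaf2 UMI was present in 33.9% of node-like and 32.4% of other nuclei, and a Dnaaf3 UMI in 12.2% and 2.57%.

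Radial spokes, which relay control to the inner arms, were higher in 6 of 7 genes compared, with a median log2 ratio of 1.30. The spoke head genes Rsph9, Rsph4a and Rsph1 were 7.38-fold (4.92 to 10.8), 6.11-fold (5.14 to 7.23) and 3.11-fold higher (1.94 to 4.79). Rsph3a and Rsph3b are close copies, and their values of 2.01 and 1.78 are uncertain for that reason. All 3 Drc genes, for subunits of the nexin-dynein regulatory complex that links neighbouring doublets, were higher. Drc7 had 52 UMIs in node-like and 37 in other nuclei, 32.3-fold (20.8 to 50.6). Drc1 was 15.1-fold (11.5 to 19.9) and Drc3 5.07-fold higher (3.82 to 6.64). The filament-forming tektins, which lie inside the doublets, were higher in both genes compared: Tekt2 by 18.9-fold (12.3 to 29.0) and Tekt1 by 15.8-fold (11.8 to 21.1). Tekt4 had 31 UMIs in all and so missed the minimum, but 21 of them lay in node-like nuclei, a ratio of 48.2 (21.7 to 115).

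Cfap genes formed the largest family, with 33 members, 30 compared and 20 higher, and a median log2 ratio of 1.84. Cfap44, part of the tether of an inner arm, had 165 UMIs in node-like and 73 in other nuclei, 51.9-fold (39.2 to 69.4). Cfap206, at the base of a radial spoke, was 37.2-fold higher (28.3 to 49.0). Cfap52 and Cfap45, proteins of the doublet lumen, were 32.1-fold (25.8 to 40.1) and 13.3-fold higher (9.36 to 18.7). Cfap54 and Cfap69, of the central apparatus, were 21.1-fold (17.2 to 25.8) and 20.2-fold higher (18.1 to 22.6), while Cfap46, also of that structure, stood at 1.86 (1.27 to 2.63). Cfap65 was 25.3-fold, Cfap70 12.3-fold, Cfap99 11.5-fold (6.02 to 21.1) and Cfap53, which is needed for nodal cilia, 11.3-fold higher (8.10 to 15.6). Cfap299 had the most UMIs of the family and was 3.16-fold higher (2.98 to 3.35), on a level of 66.6 CPM in other nuclei. Cfap97d2 was at 0.696 (0.223 to 1.66), on 5 UMIs in node-like nuclei. Some Cfap genes overlap other genes, such as Cfap57 with Ebna1bp2 and Cfap36 with Ppp4r3b, and the sources used here do not say whether counting used the strand.

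Spag genes were mixed, with 3 of 8 higher and a summed ratio of 0.971 (0.929 to 1.01). The raised ones were the central apparatus genes Spag6l (11.3-fold; 9.34 to 13.5), Spag17 (2.45-fold; 1.68 to 3.48) and Spag16 (2.26-fold; 1.84 to 2.76). Spag6, a close copy of Spag6l, had 22 UMIs, all outside node-like nuclei. Spag1, an arm assembly factor, was at 1.21 (1.003 to 1.45). Spag9, a JNK-pathway scaffold and motor adaptor, was the lowest of all 87 genes at 0.645 (0.599 to 0.694), on 744 and 26497 UMIs. Zbbx, a B-box zinc finger gene, was the highest: 172 UMIs in node-like nuclei against 45 in all others, 87.8-fold (62.9 to 124.8), and 213-fold (143 to 329) with RNA clusters.

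Intraflagellar transport genes, shared by motile and primary cilia, were raised less. The rule took only genes named Ift, so subunits of the transport trains with other names were left out. Of 14 genes, 5 were higher, the median log2 ratio was 0.75, and the summed level was 742 against 393 CPM, 1.89-fold (1.83 to 1.95). The 5 all belonged to the anterograde B complex. They were Ift57 (3.81-fold; 3.36 to 4.32), Ift74 (2.79-fold; 2.6 to 2.99), Ift81 (2.76-fold; 2.48 to 3.06), Ift22 (2.61-fold; 2.06 to 3.27) and Ift80 (2.17-fold; 2.02 to 2.33), of which Ift74 and Ift81 form the complex's tubulin-binding pair. The B subunits Ift172 and Ift88 stood at 1.76 (1.46 to 2.11) and 1.52 (1.38 to 1.69). None of the 3 retrograde A genes taken by symbol reached 2-fold. Ift122 was at 1.88 (1.65 to 2.15; 2.16 with RNA clusters, past the threshold), Ift140 at 1.34 (1.11 to 1.6) and Ift43 at 1.28 (1.15 to 1.43). For Ift172, Ift88 and these A genes the intervals lay above 1, so the values were higher by less than the threshold.

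Polycystins are cation channel subunits, and Pkd1l1 with Pkd2 is thought to serve flow sensing at the node. Pkd1l1 had 2021 UMIs in node-like nuclei and 1326 in all others, 35.0-fold (32.6 to 37.5), and a UMI in 62.9% against 5.10% of nuclei. Pkd2 was nearly even, at 1.35 (1.22 to 1.49), with a UMI in 43.7% against 37.9% of nuclei.

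Cilium genes outside the symbol rule were taken from fixed lists, to be read against the 6.16% of all genes that were higher. Of 33 further axonemal and arm-docking genes compared, 29 were higher, with a median log2 ratio of 2.73. Dynlrb2, a dynein light chain, was 36.2-fold (21.6 to 61.7), Spef2 of the central apparatus 26.1-fold and the outer arm docking gene Armc4 15.1-fold higher, whereas Ropn1l was at 1.30 (0.807 to 2.0). The transition zone, the gate at the cilium base, had 10 of 16 genes higher, among them Nphp4 (3.50-fold). Transport motors had 4 of 10 higher, all of the retrograde dynein: Wdr60, Dync2li1, Tctex1d2 and Dync2h1 lay between 2.12-fold and 2.56-fold. Their anterograde kinesin genes Kif3a and Kif3b were at 1.92 and 1.52. The list named for the BBSome, a cargo adaptor, had 3 of 11 higher: Bbs1, Arl6 and Bbs12. Arl6, Bbs10 and Bbs12 are linked to that complex but are not among its subunits. The list for basal body and primary cilium assembly had 1 of 14 higher, a share near that of all genes. The multiciliation list had 4 of 8 higher, among them Ccno (17.7-fold; 14.1 to 22.3) and Mcidas (9.40-fold; 5.11 to 16.6; 18 against 44 UMIs), while Gmnc had 2 UMIs in node-like nuclei. Of the left-right signalling genes, Lefty1 was higher (2.69-fold) and Lefty2 lower (0.480). For these lists too the UMI minimum was summed over both groups, a filter that favours genes high in node-like nuclei. Dynlrb2 (41 against 26 UMIs), Mcidas and the axonemal gene Dnali1 (4 against 47 UMIs) reached it only with their node-like UMIs. Of these, Dnali1 was not called higher.

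Across the named classes, node-like nuclei held the highest level for 61 of the 87 genes, 70.1%, against 8.49% of all genes. The axonemal families, grouped by symbol (Cfap, dynein heavy chains, radial spokes, nexin-dynein complex and tektins; 64 genes), summed to 1283 CPM (1255 to 1312) in node-like nuclei. In the other named classes they ranged from 300 CPM in ectoplacental cone-like to 472 CPM in primitive streak-like nuclei. Against anterior streak and definitive endoderm-like nuclei, a class whose markers were also raised, 38 of 61 genes compared were higher and 0 lower, with 6.66% of all genes higher and 2.27% lower. Against epiblast-like nuclei, 46 of 75 were higher and 0 lower (all genes 6.35% and 5.34%), and against primitive streak-like nuclei 39 of 69 and 0 (all genes 4.76% and 2.43%). The embryonic mesoderm-like comparison gave 37 of 69 higher and 2 lower (all genes 8.42% and 5.14%), the extraembryonic mesoderm-like one 38 of 62 and 0 (all genes 8.58% and 5.77%), and the haemato-endothelial progenitor-like one 39 of 62 and 0 (all genes 10.3% and 6.89%). Extraembryonic lineages gave similar counts against larger backgrounds. These were 47 of 71 higher and 1 lower for visceral endoderm-like (all genes 16.9% and 14.9%), 45 of 65 and 1 for parietal endoderm-like (all genes 17.8% and 15.7%), 45 of 71 and 3 for extraembryonic ectoderm-like (all genes 17.6% and 11.2%) and 48 of 61 and 1 for ectoplacental cone-like nuclei (all genes 19.9% and 10.8%). Class comparisons share the node-like nuclei and are not independent of each other. In each of them the UMI minimum was summed over both classes, so a member could reach it through its node-like UMIs alone. Zbbx did so against anterior streak and definitive endoderm-like nuclei, with 172 UMIs against 0. That filter favours members high in node-like nuclei, and the class counts are a description only.

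**Figure D2:**
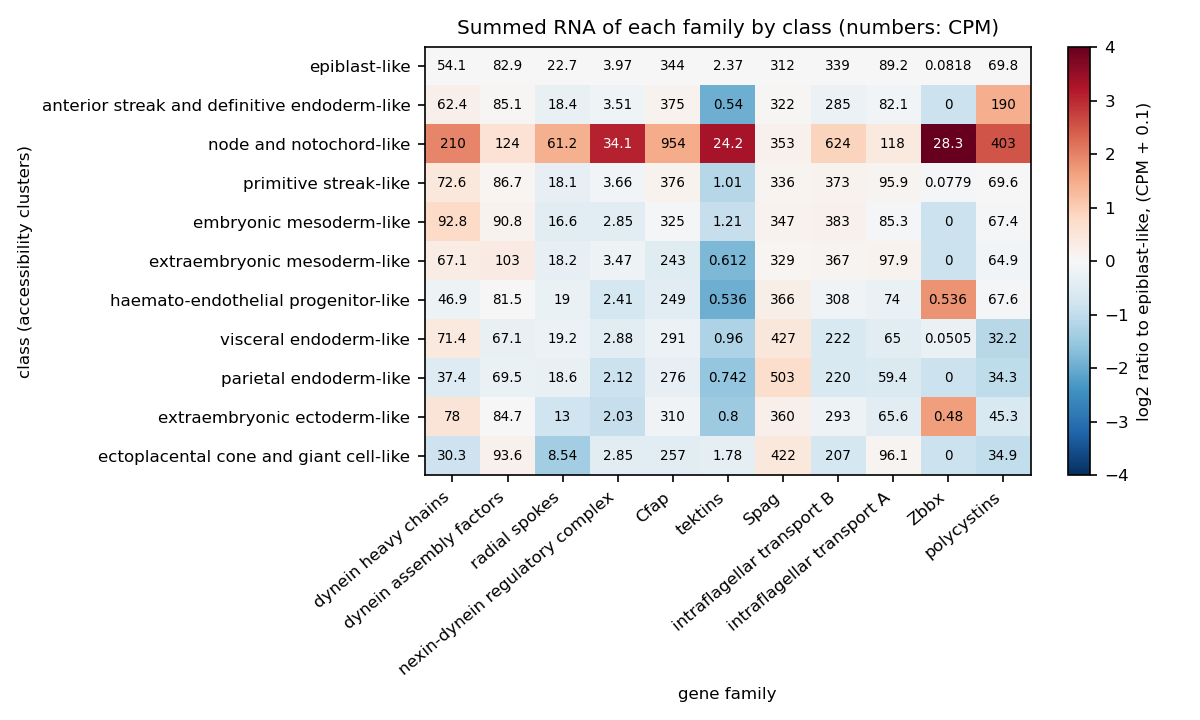
Summed RNA of each family (columns) in each named class of accessibility clusters (rows). Printed numbers are CPM, and the colour is the log2 ratio to epiblast-like nuclei after adding 0.1 CPM. The node and notochord-like row holds the highest value in every plotted family apart from Spag, where parietal endoderm-like nuclei reach 503 CPM. That class held 651 nuclei by accessibility, and only 32 took the name by RNA.

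Pkd1l1 was not confined to node-like nuclei. At an equal depth of 5000 UMIs it was detected in 55.0% (50.7 to 59.1) of node-like nuclei and in 34.6% (29.4 to 40.1) of anterior streak and definitive endoderm-like nuclei. The share was 2.03% in epiblast-like and 0.156% in extraembryonic ectoderm-like nuclei. Free RNA in the droplets was not measured. The unthinned shares were 62.9%, 50.1%, 4.03% and 1.02%, at median depths of 9636.5, 10556, 10229.5 and 12443 UMIs. Pkd1l1 was 2.54-fold higher (2.30 to 2.81) in node-like than in anterior streak and definitive endoderm-like nuclei. Cfap299 was also shared between these classes, at 211 and 139 CPM, a ratio of 1.52 (1.37 to 1.68). Zbbx had no UMI in anterior streak and definitive endoderm-like nuclei, where 3 counts would be 0.811 CPM, against 28.3 CPM in node-like nuclei.

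Dnah11 was broad. Its level was 95.8 CPM (88.1 to 104) in node-like, 43.6 (40.6 to 46.6) in extraembryonic ectoderm-like, 38.4 (35.7 to 41.2) in visceral endoderm-like, 33.9 (30.9 to 37.1) in embryonic mesoderm-like and 7.82 (6.75 to 9.01) in epiblast-like nuclei. The intervals of extraembryonic ectoderm and visceral endoderm overlapped, as did those of visceral endoderm and embryonic mesoderm. Dnah11 overlaps Cdca7l in the annotation. Other genes peaked elsewhere. Cfap43 stood at 75.5 CPM (71.6 to 79.5) in extraembryonic ectoderm-like against 26.7 CPM in node-like nuclei, and Spag9 at 369 CPM (357 to 382) in parietal endoderm-like against 122 CPM in node-like nuclei. Dnah8 was highest in embryonic mesoderm-like nuclei, at 10.5 CPM (8.86 to 12.3) against 4.44 CPM. These exceptions were chosen after their values were seen.

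Summed intraflagellar transport RNA was lowest in parietal and visceral endoderm-like and ectoplacental cone-like nuclei. Compared with epiblast-like nuclei, 5 of 14 genes were at least 2-fold lower in ectoplacental cone-like, 6 in parietal endoderm-like and 5 in visceral endoderm-like nuclei, with 0 higher in these classes. Among all genes 21.5%, 21.4% and 20.4% were lower and 10.8%, 15.8% and 15.6% higher in the same comparisons. The median log2 ratios of the 14 genes were -0.67, -0.44 and -0.30, beside -0.04, -0.10 and -0.10 for all genes. In extraembryonic ectoderm-like nuclei 0 of 14 passed in either direction (all genes 10.6% higher and 19.5% lower), with a median log2 ratio of -0.30. Extraembryonic mesoderm-like nuclei lay higher, at 465 CPM against 428 CPM in epiblast-like nuclei. The summed level ran from 279 CPM (269 to 290) in parietal endoderm-like to 469 CPM in primitive streak-like and embryonic mesoderm-like nuclei, all below the 742 CPM (721 to 764) of node-like nuclei.

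Axonemal RNA was uneven among node-like nuclei. After thinning to 5000 UMIs, which left out 35 of the 590 nuclei, 94.4% (92.2 to 96.2) had an axonemal UMI, with a mean of 6.21 and 64.3% holding 3 or more. In epiblast-like nuclei the share was 84.7% (83.1 to 86.2), the mean 2.10 and the share with 3 or more 34.0%, and 91 of 2260 nuclei were left out. An axonemal UMI here is one of any gene grouped by symbol, and broadly detected Cfap genes are among them. Outside node-like nuclei Cfap20 and Cfap299 held 9893 and 9303 of the 58056 UMIs. Dnah5 had a UMI in 5.77% of thinned node-like and 0.507% of thinned epiblast-like nuclei. At this depth the lowest of the named classes, haemato-endothelial progenitor-like nuclei, had a share of 67.0% (61.5 to 72.2) and a mean of 1.40. Its interval overlapped that of ectoplacental cone-like nuclei (72.8%; 65.4 to 79.3), which were lowest at 3000 UMIs (56.0% against 56.8%). The unthinned shares in node-like, epiblast-like and haemato-endothelial progenitor-like nuclei were 98.1%, 95.7% and 89.5%, at median depths of 9636.5, 10229.5 and 10140.5 UMIs. In node-like nuclei 8.47% held 15 or more axonemal UMIs, while 0 of the 2169 thinned epiblast-like nuclei did. At full depth the 10% of node-like nuclei with the most axonemal UMIs held 46.8% of them. The median node-like nucleus had 5 of the 64 axonemal genes detected, against 3 in other nuclei, and the maxima were 37 and 29.

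**Figure D3:**
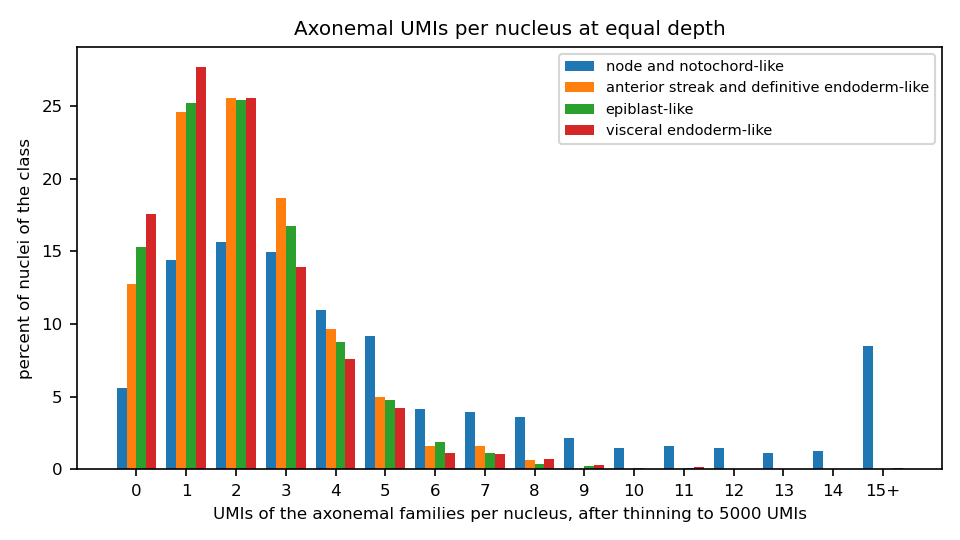
Share of nuclei (vertical axis, percent of the class) by number of axonemal-family UMIs (horizontal axis, 15 or more pooled) after thinning to 5000 UMIs, in 4 classes. Node-like nuclei extend to the right, with 8.47% at 15 or more, and 5.59% of them have none.

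The transcription factors linked to motile cilia were raised in part. Foxj1 was 22.6-fold higher in node-like nuclei (20.1 to 25.3; 97.4 against 4.32 CPM), with a UMI in 36.6% of them and 3.85% of others. Rfx3 was 5.51-fold (5.40 to 5.61) and Rfx2 3.13-fold higher (2.51 to 3.87). Rfx1 (1.33) and Rfx7 (1.01) were not past the threshold, and Rfx4 stood at 0.641 (0.454 to 0.880).

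Within the 590 node-like nuclei, the 216 with a Foxj1 UMI were compared with the 374 without. Their median depths were 10049.5 and 9174.5 UMIs. Axonemal families stood at 2159 CPM (2101 to 2219) with a Foxj1 UMI and 713 CPM (686 to 740) without, 3.03-fold (2.89 to 3.18). After thinning to 5000 UMIs the split was remade on the Foxj1 UMIs that remained, with 158 nuclei against 397. The ratio was then 2.86-fold (2.67 to 3.06), for sets that differ from the 216 and 374. The level without a Foxj1 UMI was still above the 472 CPM of primitive streak-like nuclei, the next highest named class. Intraflagellar transport differed by 1.80-fold (1.69 to 1.90) and the node markers by 1.77-fold (1.66 to 1.89), so nuclei with a Foxj1 UMI also held more node marker RNA. Of 57 members with 50 UMIs in node-like nuclei, 35 were higher and 0 lower with a Foxj1 UMI, against 2.76% higher and 0.699% lower among all genes. The 50 UMIs were summed over both sets, and 20 of the 35 had fewer than 50 without a Foxj1 UMI, so the filter favours members high in nuclei with one and the count is a description only. The ratios of Dnah5 (113 against 6 UMIs; 28.9-fold; 12.9 to 80.5), Drc7 (25.1-fold; 8.09 to 126) and Zbbx (20.5-fold; 11.4 to 40.5) were the highest. Cfap44 was 10.5-fold and Tekt1 11.1-fold higher. Pkd1l1 was 2.06-fold higher (1.88 to 2.25), Dnah11 2.68-fold (2.26 to 3.19) and Ift88 1.74-fold (1.43 to 2.13). Pkd2 (1.16), Cfap43 (0.879) and Spag9 (0.964) had intervals that spanned 1. A nucleus without a Foxj1 UMI may still express the gene, and whether the split follows sampling of Foxj1 RNA was not tested beyond the thinned values.

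**Figure D4:**
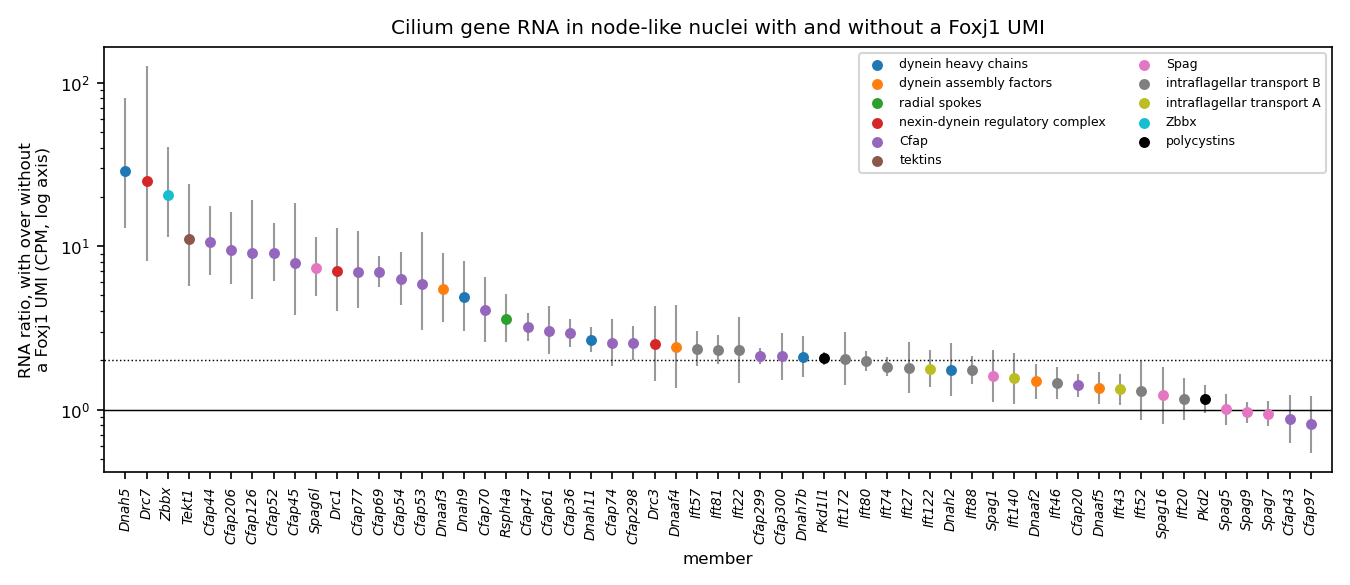
Ratio of RNA (CPM, log axis) in the 216 node-like nuclei with a Foxj1 UMI over the 374 without, for the 57 members with at least 50 UMIs in node-like nuclei, ordered by ratio. Points are coloured by family, bars are 95% counting intervals and the dotted line marks 2-fold. Dnah5 (28.9-fold), Drc7 and Zbbx are at the left end, and Spag9, Spag7, Cfap43 and Cfap97 lie near or below 1 at the right.

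Promoter accessibility differed far less than RNA. A peak at the promoter was present for 90 members, all with at least 50 counts. Only 1 of the 90 was at least 2-fold more accessible in node-like nuclei and 0 were less so, against 2.11% higher and 2.6% lower among all genes. The median log2 ratio was 0.05 for members and -0.07 for all genes. The exception was Ift88os, an antisense transcript at Ift88, at 5.27-fold (3.76 to 7.25; 85 counts against 450), whose own RNA had 2 UMIs in node-like and 24 in other nuclei. The strand of Ift88os was undecided, so its promoter window ran 1000 bp to each side of the start. Its call was lost when peaks had to be centred in the promoter. Of the 90 members, 18 shared a promoter peak with another gene's window, such as Cfap52 with Stx8, and their values cannot be assigned to either gene alone. Promoter ratios of 4 strongly raised genes had intervals that spanned 1. The ratio was 1.10 for Cfap44 (0.876 to 1.37; 20.7 against 18.7 CPM of peak counts), 1.15 for Cfap206 (0.943 to 1.40), 1.03 for Cfap52 (0.812 to 1.29) and 1.31 for Drc7 (0.959 to 1.75). Of the 90 intervals, 6 lay above 1 and 8 below. The share of all genes with such intervals is not given here, so these counts are a description only. Beside Ift88os, those above 1 were Spag16 (1.75; 1.44 to 2.10), Cfap53 (1.73; 1.31 to 2.25), Spag8 (1.55; 1.19 to 1.99), Dnah10 (1.43; 1.09 to 1.86) and Spag6 (1.37; 1.09 to 1.70), all below 2-fold. With clusters at resolution 3 the promoter fold of Cfap53 was 0.690 and the promoter fold of Dnah10 0.760, and against epiblast-like nuclei that of Dnah10 was 0.948. Cfap65, 25.3-fold higher in RNA, was at 0.531 (0.281 to 0.915) on 23 counts, and Tekt5 at 0.630 (0.393 to 0.960). The others below 1 were Cfap20, Cfap61, Dnah11, Ift46, Ift80 and Spag9. Zbbx, Pkd1l1, Dnah5 and Dnah9 had no peak in their promoter window, so this readout gave no value for 4 genes with high RNA ratios. Of the node markers measured the same way, Noto alone passed 2-fold (2.31; 1.82 to 2.90), while Foxa2 was at 1.51, T at 1.31, Chrd at 1.26 and Dand5 at 0.722, and Foxj1 was at 1.01 (0.847 to 1.20).

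**Figure D5:**
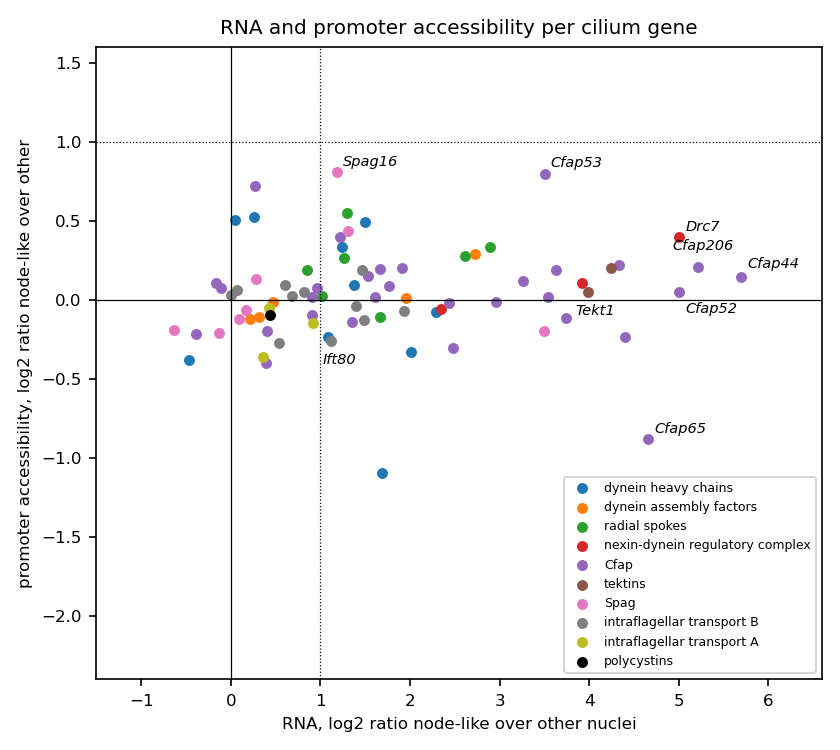
Log2 ratio of RNA (horizontal, 590 node-like nuclei by accessibility clusters) against log2 ratio of promoter accessibility (vertical, 413 node-like nuclei by RNA clusters) for 80 members measured in both. Solid lines mark no difference and dotted lines 2-fold. RNA ratios spread to the right while promoter ratios stay below the upper dotted line.

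Across the 80 members measured in both assays, Spearman's rho between RNA and promoter ratios was 0.19 and Pearson's r 0.079, and over 16029 genes they were 0.22 and 0.26. The points share the same pool and partly the same nuclei, and members are not replicates. Of the 47 members higher in RNA and with a promoter value, 0 were higher in both readouts, against 38 of 988 such genes overall (3.85%). The promoter interval lay above 1 for 2 of them (Cfap53 and Spag16) and below 1 for 4 (Cfap61, Cfap65, Dnah11 and Ift80), against 269 (27.2%) and 53 (5.36%) of the 988.

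Peaks away from promoters showed larger differences, but not more often than elsewhere. Of 1366 distal peaks within 50000 bp of a member's start, 80 were at least 2-fold more accessible in node-like nuclei (5.86%) and 112 less, against 7.1% and 8.25% of all such peaks. The 80 lay near 51 of the members, a count with no meaning of its own, since the share of all genes near such a peak is not given here. The 6 highest ratios were at peaks near Ift52, Pkd1l1, Cfap54, Tekt4, Cfap300 and Dnah14. The peak near Ift52, at chr2:162989648-162990480 and 27290 bp from its start, was 15.7-fold more accessible (10.8 to 22.4; 95 counts against 169), although Ift52 RNA was even at 0.995 (0.806 to 1.22). The peak near Pkd1l1, at chr11:8970272-8971060 and 20127 bp from its start, was 10.8-fold more accessible (7.48 to 15.4; 84 counts against 217). Those near Cfap54 (9.67-fold; 44615 bp away), Tekt4 (8.46-fold; 23965 bp), Cfap300 (7.96-fold; 15458 bp) and Dnah14 (7.45-fold; 40471 bp) followed. Dnah14 and Ift52 RNA was not raised, so a more accessible peak nearby did not go with higher RNA of the member in each case. Distance assigned these peaks, and other genes start within the same span.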

How the data were processed

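The authors deposited whole-number counts, UMI counts per gene and counts per accessibility peak, in 1 matrix written by cellranger-arc 2.0.0, per the file headers. The submitters' processing notes name Cell Ranger ARC 2.0.0 and mm10. Whether counting used the strand is not given in the sources used here. Nuclei needed 1000 UMIs, 500 genes, 1000 peak counts and at most 20% mitochondrial UMIs, and doublets called by Scrublet (scanpy 1.11.5, 1154 barcodes) were removed. RNA (2000 variable genes, chosen without the members and the pathway genes as listed) and accessibility were clustered apart with leidenalg 0.10.2 on 30 components at resolution 2. Clusters were named from marker lists, by a scoring rule set after the data had been seen. RNA and peak counts were summed over nuclei and divided by the class total and scaled to 1000000 (CPM). A gene counted as higher or lower at a ratio of 2 or more whose exact conditional binomial interval left out 1, given 50 counts over all nuclei. Accessibility intervals used estimated fragments, as 86.4% of nonzero peak values were even. Promoter windows covered 1000 bp before and 100 bp after each start where the strand was decided. For the 6275 genes with an undecided strand, 4 of them members, they covered 1000 bp to each side. The RNA ratio and its calls were tested on simulated counts that held counting error only. That test could not cover variation between nuclei, and accessibility intervals were not simulated.

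The members and all lists were chosen with earlier results of these data known, so nothing here is independent support for them. Named members were those with the highest and lowest RNA ratios (15 and 5) and promoter ratios (8 and 4), a fixed panel, the member of each family with the most UMIs, and the 6 distal peaks with the highest ratios. Members named outside that rule, and the subsets of pathway genes, were chosen after their values were seen. In the pathway lists Dnai1 and Dnai2 were matched as Dnaic1 and Dnaic2, and 1 listed gene was not matched. Columns of per-sample values left unused numbered 0. Alternatives covered the nucleus filter, clustering, counts asked for, thinning, comparison group, promoter width and distal distance.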

Additional observations from a re-analysis of the deposited data

How the results depend on the processing

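The number of members with higher RNA (52) lay between 40 and 58 under the alternatives, and the direction of the median log2 ratio held in each. That median (1.35) was 1.46 with doublet calls kept, 1.22 with 200 counts asked for, 1.57 with node-like nuclei from RNA clusters, 1.23 after thinning to 5000 UMIs, 1.94 for nuclei with a Noto UMI, and 1.59 for nuclei that were node-like in both assays. With node-like nuclei from RNA clusters, or in both assays, 1 member was lower by the rule, and with RNA clusters it was Dnah14 (0.130). The median log2 fold of member promoter accessibility, node-like over other nuclei (0.05), was -0.077 with RNA clusters at resolution 3, where the node-like name covered 488 nuclei. The 1 promoter call fell to 0 when peaks had to be centred in the promoter. Within 20000 bp, distal peaks of members more accessible in node-like nuclei numbered 29 of the 547 compared, since fewer were counted. The share of all peaks at that distance is not given here. The share with an axonemal UMI was 85.9% at 3000 UMIs. Among named members whose interval left out 1, values changed side of 1 in 5 cases: at resolution 3 the promoter fold of Cfap53 (0.690), the promoter fold of Dnah10 (0.760) and the promoter fold of Ift80 (1.03), against epiblast-like nuclei that of Dnah10 (0.948), and in nuclei with a Noto UMI the RNA fold of Ift43 (0.992). For these changes the cause was not tested. Zbbx RNA ranged from its value of 87.8-fold to 346-fold against epiblast-like nuclei, where it had 2 UMIs, and Pkd1l1 RNA from 21.7-fold to 70.7-fold. The comparison with both assays, and that with named classes only, were chosen after seeing the data. The accessibility comparison under the stricter nucleus filter and the RNA comparison at resolution 1 were not run, because no cluster took the node-like name.

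No paired analysis was possible because each assay had 1 library. Without replicates, differences between embryos or preparations cannot be told apart from counting error. Genes with few UMIs had wide intervals, and 14 of the 101 members fell below the count asked for.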
